A study of Mus musculus with 9 samples.

Results

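The subject of these results is the wild-type baseline transcriptome of sorted brain myeloid cells, taken from the 4 libraries labelled wild type out of 9 in the study. The 4 wild-type libraries came from non-transgenic littermates aged 11 to 12 months, with libraries 1 and 2 from females and libraries 3 and 4 from males. The 5 other libraries came from Tau-P301L transgenic mice and were not used. Cells were sorted as Cd11b+, the surface integrin encoded by Itgam that microglia share with other myeloid cells, and RNA from each cell pellet was sequenced in bulk. No label says that the 4 libraries came from separate mice, so the spread between them may be partly technical.

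Microglia are the resident macrophages of the brain parenchyma. They survey the tissue with motile processes, sense nucleotides and chemokines, take up debris, degrade it in lysosomes, and produce complement C1q. Their identity is maintained by myeloid factors such as Spi1 (PU.1) and Irf8 and by microglial factors such as Sall1, while survival depends on signalling through the receptor Csf1r.

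Counted reads per library were 3793606, 2681666, 2897323 and 3045349 in libraries 1 to 4, and 17947, 17156, 16870 and 18615 genes had at least 1 read. A count of 0 allows at most 3 reads, which is 0.791 to 1.12 CPM, or reads per 1000000 counted, in these libraries. This limit covers counting error only. CPM says where the reads went, and the deposited size-factor-adjusted RPKM (nRPKM) is a level per gene length that ranks genes against each other. Of 21254 nuclear protein-coding genes, 15549 had a read, 6126 (28.8%) reached a mean of 1 nRPKM, 599 (2.82%) reached 10, and 23 reached 100. Their median was 0.193 nRPKM, the background for the gene lists that follow.

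The abundance of RNA was concentrated in a small number of genes. The 10 genes with most reads took 33, 19.8, 28.1 and 18.5% of the reads of libraries 1 to 4. The 100 genes with most reads took 41.1 ± 7.04% (SD, n = 4), the top 1000 took 69.7 ± 4.28%, and 229 genes together held 50% of all reads. Much of that concentration was Malat1 and the mitochondrial genome: without them, the leading 10 genes held 6.6 ± 1.34% of the remaining reads, and 579 genes were needed to reach 50%. By level, 10 genes averaged 1000 nRPKM or more and held 24.2 ± 7.08% of reads; 9 of them were mitochondrially encoded and the other was Malat1. A further 39 genes lay between 100 and 1000 nRPKM with 7.11 ± 0.427% of reads, 707 between 10 and 100 with 29.8 ± 1.88%, and 6590 between 1 and 10 with 33.9 ± 4.74%. The 14648 genes detected below 1 nRPKM held 4.97 ± 0.861% of reads, and 14534 genes had no read in any wild-type library.

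Mitochondrially encoded genes held 20, 10.3, 16.5 and 9.3% of reads in libraries 1 to 4, so libraries 1 and 3 stood above libraries 2 and 4. The mitochondrial chromosome encodes subunits of the respiratory chain and of ATP synthase beside its own ribosomal and transfer RNAs. ND6, a subunit of complex I, had the highest level of any gene, at 12591, 4394, 10367 and 3217 nRPKM (mean 7642 ± 4548, SD, n = 4). ND5 followed at 5955 ± 3376, ND1 at 4443 ± 1900, CYTB of complex III at 4216 ± 2035 and ND2 at 4144 ± 2043 nRPKM. These ranges overlapped, and all 5 were higher in both libraries 1 and 3 than in libraries 2 and 4. ND4 averaged 1662, COX1 1481, and the large ribosomal RNA mt-Rnr2 1296 nRPKM.

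The other 6 mitochondrial messenger RNAs were listed far lower. ND3 averaged 13.81, ATP8 2.437, ATP6 1.19, ND4L 0.4476, COX2 0.345 and COX3 0.1038 nRPKM, and COX3 had 0, 2, 1 and 1 reads. The respiratory subunits are transcribed as parts of long shared precursors. The deposited counts use uniquely aligned reads, so the share of each transcript's 50-base stretches that occur in no other annotated gene was computed. That share was 100% for ND6, ND1, CYTB and ATP8, 92.4% for ND5 and 91.8% for ND2. It was 48.9% for COX1 and 37.8% for ND4. In the low genes it was 2.01% for ND3, 1.21% for ND4L, 0.475% for ATP6, 0.136% for COX3 and 0% for COX2. ATP8, which overlaps ATP6, was the exception among the low genes. The part of uniqueness in these levels was not tested. ND6 lies on the strand opposite the other mitochondrial messenger genes. No source says that counting used strand, and its reads and RNA from the other strand cannot be told apart.

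**Figure D1:**
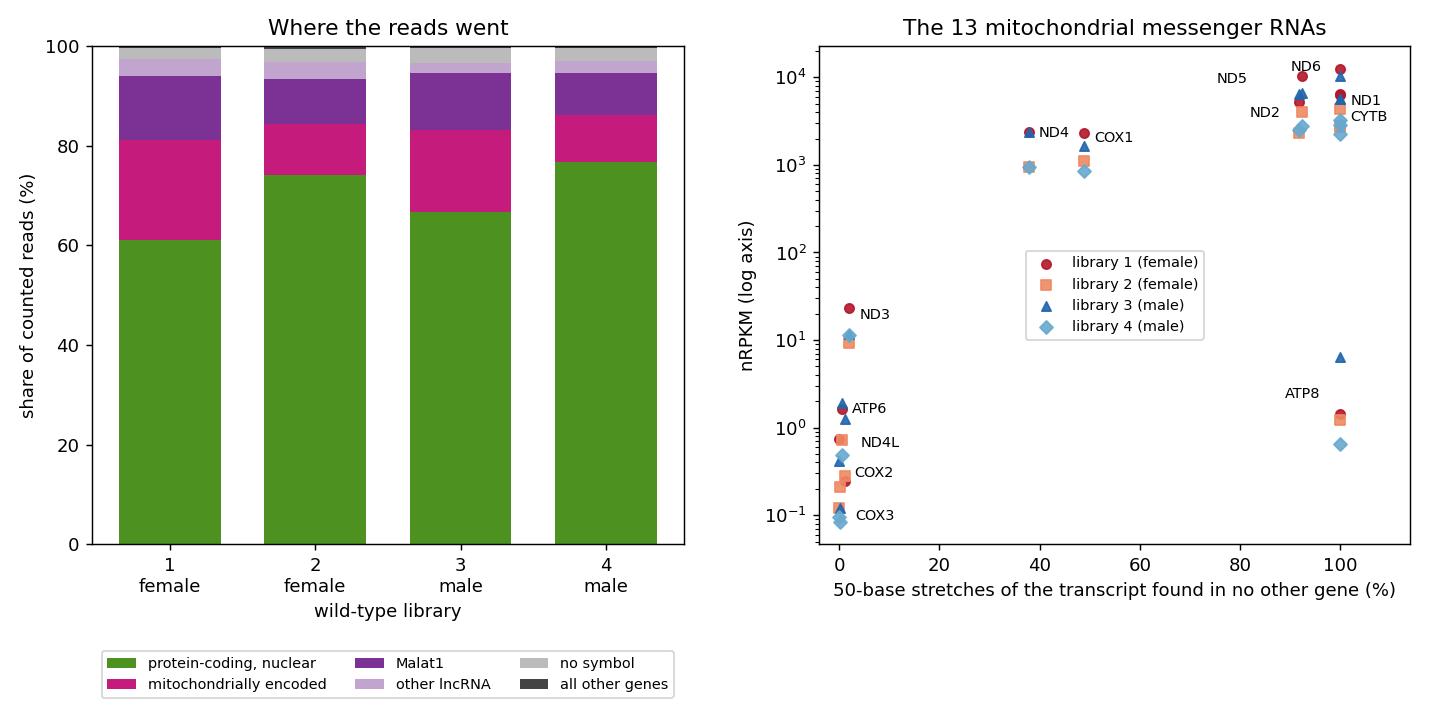
Left, stacked bars of the share of counted reads (%) in each wild-type library by class of gene: mitochondrially encoded genes take 20, 10.3, 16.5 and 9.3%. Right, nRPKM (log axis) of the 13 mitochondrial messenger RNAs in each library against the share (%) of their 50-base stretches found in no other gene; COX3 in library 1 and ND4L in library 4 are at 0 and are not drawn, and ATP8 is the low gene at 100%.

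Malat1, a long noncoding RNA retained in nuclear speckles, was the single gene with most reads. It took 12.8, 8.9, 11.3 and 8.53% of them, or 5119, 2828, 4409 and 2456 nRPKM, again with libraries 1 and 3 above libraries 2 and 4. Xist, the noncoding RNA of X inactivation, averaged 6944 CPM, carried by the 2 female libraries at 14664 and 13011 CPM against 43.83 and 58.78 CPM in the males. The next nuclear noncoding genes by reads were Gm34280 at 1017 CPM, the pseudogene Gm31166 at 991.3 CPM and the imprinted Meg3 at 859.4 ± 382.8 CPM. Protein-coding nuclear genes took 61.1, 74.1, 66.7 and 76.8% of reads.

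A protease inhibitor gene and a lysosomal protease gene had the highest mean levels among the nuclear protein-coding genes. Cst3, which encodes the secreted protease inhibitor cystatin C (chr2:148871722-148875512), was highest at 492.9, 425.8, 575.5 and 351.2 nRPKM (461.3 ± 95.62, SD, n = 4). Ctsd, the lysosomal aspartyl protease cathepsin D (chr7:142375910-142387827), stood at 406, 501.2, 405.3 and 440.9 nRPKM (438.4 ± 45.07). The ranges of these genes overlapped, so their order was within the spread. The cysteine protease Ctss was at 119.1, 126.7, 67.01 and 96.24 nRPKM (102.3 ± 26.84), lowest in library 3.

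Surface proteins of microglia formed another group among the 30 leading genes. Cx3cr1, the receptor for the neuronal chemokine fractalkine (chr9:120048683-120068296), was measured at 324.3, 165, 316.6 and 160.5 nRPKM. Siglech, a sialic acid-binding receptor, was measured at 281.9, 169.8, 254.6 and 177.7 nRPKM. In both genes libraries 1 and 3 lay above libraries 2 and 4 with no overlap. F11r, a junctional adhesion molecule, had the same arrangement at 315.8, 145.7, 264 and 146.9 nRPKM. P2ry12, the ADP receptor that guides microglial processes, was near-constant in 3 libraries at 130.4, 130.1 and 127.9 nRPKM and lower in library 3 at 97.8. Itgam, the integrin chain used for the sort, was at 163.5, 147.1, 145.1 and 134.9 nRPKM, although only 33.7% of its 50-base stretches are in no other gene.

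Genes of RNA processing were also among the leaders. Luc7l3, a splicing factor of the U1 particle, averaged 350.9 ± 113.8 nRPKM, Prpf38b 347.3 ± 124.3 and Rbm25 254 ± 125, while Pnn, Pnisr and Srrm2, proteins of nuclear speckles or the spliceosome, averaged 140.5, 125.8 and 110.3. Rbm25 showed the pattern most clearly at 332, 161.4, 388.1 and 134.7 nRPKM. Across the 30 leading genes, 15 had their 2 highest values in libraries 1 and 3, the libraries with more mitochondrial and Malat1 reads. Over all 2621 protein-coding genes at 50 CPM or more the share with this arrangement was 25.9%. At that depth it was found in 1 of 8 cathepsins and 4 of 21 lysosomal hydrolases and membrane proteins. It was found in 3 of 4 vacuolar proton pump genes, 4 of 6 tetraspanins, 5 of 9 complement genes and 7 of 19 microglia markers. The part of mitochondrial and Malat1 reads in the levels of the 15 genes was not tested. The remaining leaders included Tmsb4x, an actin-sequestering peptide, at 165.8 ± 16.07, the membrane protein Serinc3 at 213.6 ± 44.06, the chaperones Hsp90ab1 at 100.6 ± 42.67 and Hsp90b1 at 80.34, and the RefSeq gene model Gm32584 at 255.1 ± 52.52 nRPKM.

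**Figure D2:**
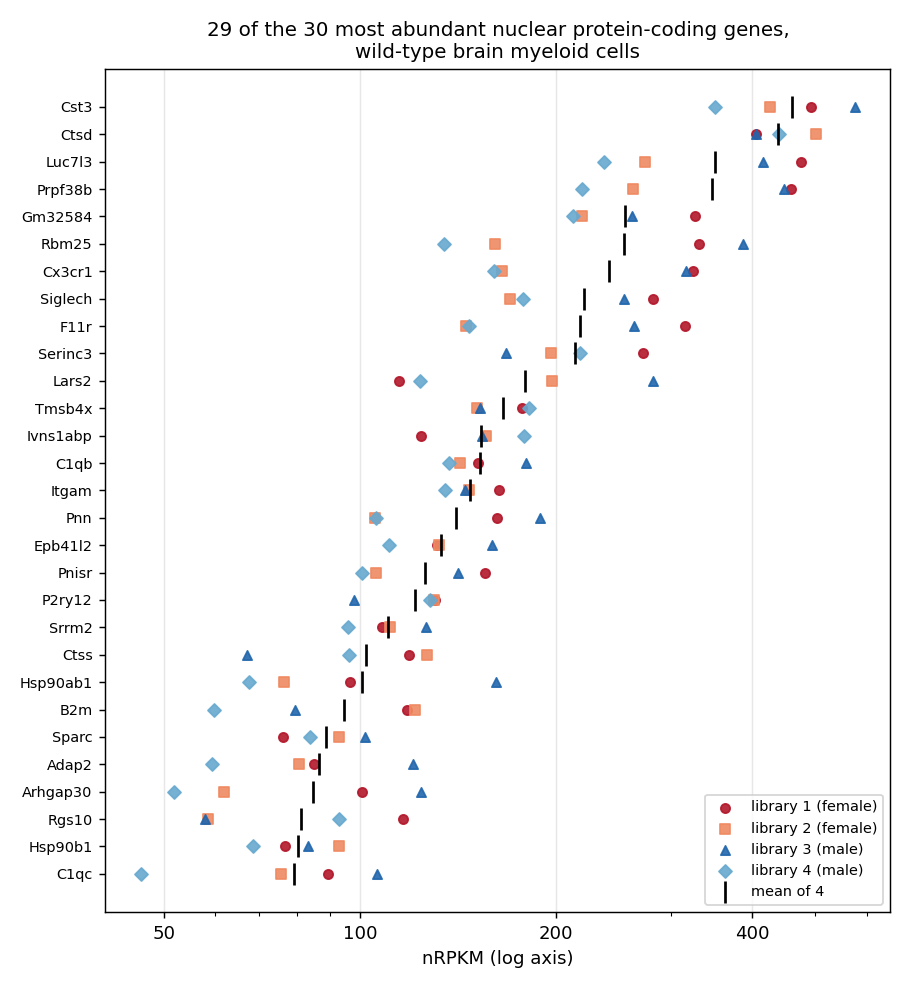
nRPKM (log axis) of 29 of the 30 nuclear protein-coding genes of highest mean level in each of the 4 wild-type libraries, with the mean as a vertical bar. Cst3 and Ctsd lead at means of 461.3 and 438.4, and in 15 of the 30 genes libraries 1 and 3 hold the 2 highest values.

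The sort marker Cd11b is shared by microglia and other myeloid cells, so markers of microglia and of other cells were examined. All 20 microglia markers had reads in every library, all 20 averaged at least 1 nRPKM and 18 averaged at least 10, against 2.82% of nuclear protein-coding genes at that level. Their median was 39.5 nRPKM and their sum 1517, 1303, 1485 and 1211 nRPKM. Beside Cx3cr1, Siglech and P2ry12, the growth factor receptor Csf1r was even across libraries at 69.82, 75.59, 77.28 and 75.31 nRPKM. The adaptor Tyrobp averaged 60.14 ± 13.98, its partner receptor Trem2 26.92 ± 6.237, the nucleotide receptor P2ry13 52.22 ± 12.97 and the microglia-restricted membrane protein Tmem119 24.26 ± 4.178 nRPKM. Crybb1 at 6.882 and Gpr84 at 3.448 nRPKM were the 2 markers under 10.

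Markers of other cells summed to much less. Markers of border macrophages, the macrophages of the meninges and perivascular spaces, summed to 15.52, 9.489, 10.72 and 13.98 nRPKM. The microglia sum, over 20 markers against 12, was 86.6 to 139 times higher in the same libraries. Median levels were 39.5 nRPKM for the microglia list and 0.348 for the border macrophage list. The part of other macrophages in the levels of the microglia markers was not tested. Stab1 at 6.37 and Mrc1 at 2.141 nRPKM led the border macrophage list, and 12 of 12 members had a read. Monocyte markers summed to 3.122 ± 0.895 nRPKM, of which Ccr2 was 1.923. The dendritic cell list summed to 236.8 ± 59.9 nRPKM, but Siglech, which is also a microglia marker, made up 93.3% of it, and the next members were Fscn1 at 7.56 and Bst2 at 4.051.

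Neutrophil markers varied most between libraries, at 4.666, 0.07126, 32.09 and 8.177 nRPKM in sum. S100a9, a calcium-binding protein abundant in neutrophils, was at 0.8397, 0, 16.13 and 3.403 nRPKM, and its partner S100a8 at 0.9353, 0, 9.583 and 2.696. Library 3 was the highest and library 2 the lowest for both. In bulk RNA, fewer cells of a type and less RNA per cell cannot be told apart. Oligodendrocyte markers summed to 41.68 ± 7.09 nRPKM, including the myelin genes Cnp at 5.324 and Mbp at 2.743 nRPKM. Astrocyte markers summed to 40.81 ± 4.24, led by glutamine synthetase, Glul, at 25.91, an enzyme that macrophages can express too. Neuronal markers summed to 23.73 ± 7.52, led by the synaptic protein Snap25 at 8.806.

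Vascular, ependymal and lymphoid markers had low sums. Endothelial markers summed to 3.242 ± 0.592 nRPKM, mural cell markers to 0.6824 and oligodendrocyte precursor markers to 0.8338. The ependyma and choroid plexus list reached 6.233 nRPKM in library 4 against 0.548 to 1.807 in the others, with the choroid plexus gene Ttr at 3.462 in library 4. B cell markers summed to 0.4381, with Pax5 at 0, red blood cell markers to 0.2884, and T and NK cell markers to 0.1856, with Cd3e, Cd3g, Nkg7 and Ncr1 at 0. In the red blood cell list 4 of 7 genes had fewer than 50% of their 50-base stretches in no other gene, and the part of this in the sum was not tested. The immunoglobulin genes Ighm and Igkc and the T cell receptor gene Trac had no match among the named genes.

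**Figure D3:**
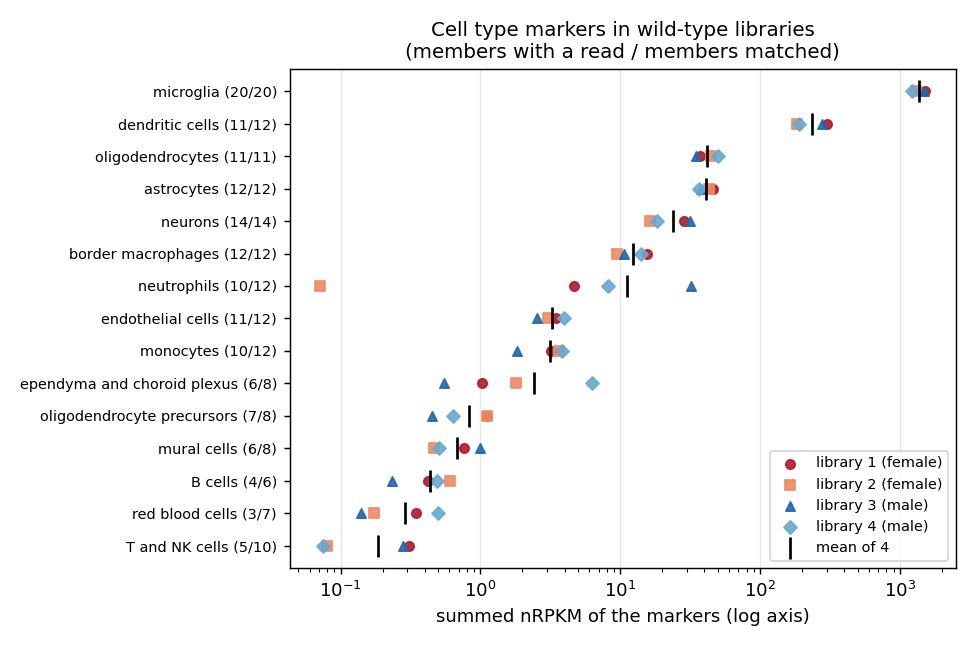
Summed nRPKM (log axis) of the markers of each cell type in the 4 wild-type libraries, with the mean as a vertical bar and, in each label, the members with a read of the members matched. The microglia list lies at 1211 to 1517, above every other list, and neutrophil markers run from 0.07126 to 32.09.

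Genes of lysosomal degradation were among the most abundant families. The 22 cathepsins summed to 637 ± 69.2 nRPKM, but 8 had no read and Ctsd alone made up 68.8%. After Ctsd and Ctss came Ctsz at 25.18 and Ctsb at 21.81 nRPKM. The 38 lysosomal hydrolases and membrane proteins all had reads, 33 reached 1 nRPKM and 14 reached 10, with a sum of 612.4 ± 34.5. Its members included the lysosomal membrane proteins Laptm5 at 76.89 and Laptm4a at 25.98 nRPKM and the protease legumain, Lgmn, at 60.97. The vacuolar proton pump, which acidifies the lysosome, summed to 94.75 ± 8.85 nRPKM and was led by its accessory subunit Atp6ap1 at 22.78. Autophagy genes summed to 54.78 ± 4.14, led by Rb1cc1 at 11.69.

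Complement RNA was led by genes of the initiating C1q complex and of a complement receptor. The list summed to 475.4 ± 64 nRPKM, and C1qb at 152, 142.6, 179.8 and 137 nRPKM and Itgam, a chain of complement receptor 3, led it. C1qc was at 89.28, 75.74, 106.1 and 46.1 nRPKM and C1qa at 22.5, 20.19, 29.51 and 15.08, with library 3 highest and library 4 lowest for all 3 C1q chains. The 3 genes encode chains of 1 complex. The downstream components C3 at 0.0732 and C4b at 0.15 nRPKM were far lower.

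Receptor lists had higher sums than ligand lists. Chemokine receptors summed to 285.8 ± 84.3 nRPKM, 9.52 to 27.4 times the chemokine ligands of the same libraries. Cx3cr1 alone made up 84.5% of the chemokine receptor sum. Only 3 of 23 chemokine receptors reached 1 nRPKM, Cx3cr1 and Ccr2 among them, and 5 of 41 chemokine ligands did. Median levels were 0.153 nRPKM for the chemokine receptors and 0.0927 for the chemokine ligands. Cytokine and growth factor receptors summed to 8.37 to 10 times the cytokines and growth factors, with Il6ra at 53.09, Csf3r at 48.79 and Tgfbr1 at 37.97 nRPKM beside Csf1r. Among the ligands, Pdgfa at 8.804, Il1a at 7.181 and Tgfb1 at 6.664 were highest. Purine receptors summed to 210.8 ± 27.4 nRPKM, P2ry12 being 57.7% of that, ahead of P2ry13 and P2ry6 at 16.87.

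Inhibitory and uptake receptors were also well represented. Inhibitory checkpoint genes had a narrow sum of 214.2, 218.5, 221.6 and 211.5 nRPKM, led by the collagen receptor Lair1 at 77.93, the CD47 receptor Sirpa at 48.31 and Havcr2 at 44.67. Of 9 Siglecs, Siglech and Cd33 at 70.25 nRPKM reached 10. Mertk, which binds apoptotic cells through bridging proteins, led the scavenger and apoptotic cell receptors at 59.18 of a sum of 128.1 ± 14.5. Fc receptors summed to 111.1 ± 6.55, led by Fcer1g at 40.59. Of 12 Toll-like receptors 10 reached 1 nRPKM, led by the endosomal RNA sensor Tlr7 at 22.19.

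Antigen presentation genes varied between libraries, and the class I list with its chaperones had the higher sum. The MHC class I list, which includes the chaperones that load it, summed to 228.5 ± 40.6 nRPKM. It was led by the light chain B2m at 118.1, 121.3, 79.58 and 59.66 nRPKM, then the general chaperones Calr at 51 and Canx at 23.12, with the heavy chain H2-K1 at 14.51. MHC class II genes summed to 84.28, 55.87, 35.96 and 88.51 nRPKM, and the sum of the class I list with its chaperones was 1.92 to 6.47 times as high. By mean level, H2-K1 was below H2-Aa, which averaged 16.87 nRPKM. H2-Aa, a class II chain, was at 21.73, 10.7, 4.258 and 30.78 nRPKM, H2-Ab1 at 22.01, 12.41, 5.511 and 19.99 and the invariant chain Cd74 at 20.06, 11.17, 10.02 and 15.22. For all 3, libraries 1 and 4 lay above libraries 2 and 3. The border macrophage list, at 15.52, 9.489, 10.72 and 13.98 nRPKM over 12 members with a read, was also higher in libraries 1 and 4. Of its members Mrc1, at 3.392, 1.416, 1.236 and 2.521 nRPKM, had that arrangement, and Stab1, at 5.528, 5.578, 8.093 and 6.283, was highest in library 3. The part of these cells in the class II levels was not tested. Reads that align to more than 1 gene are not in these counts. The median share of 50-base stretches in no other gene was 89.4% for the class I list and 99.5% for class II genes.

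Transcription factors of the myeloid lineage were present at moderate levels. Of 43 listed, all had reads and 35 reached 1 nRPKM, with a sum of 344.4 ± 37. Maf was at 39.59, Mef2a at 37.52 and Sall1 at 30.21 ± 9.485 nRPKM. The lineage factors Irf8, at 8.627, 5.908, 9.125 and 9.143 nRPKM, and Spi1, at 6.188, 8.366, 7.597 and 7.277 nRPKM, were lower than these and even between libraries.

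Genes associated with disease states of microglia spanned a wide range of levels. The 28 genes of the disease-associated list summed to 773.5 ± 63.3 nRPKM, but Ctsd made up 56.7%, and B2m, Tyrobp and Trem2 were the next. All 28 had reads, 21 reached 1 nRPKM and 10 reached 10. Apoe, a lipid carrier, was at 14.29, 8.625, 5.469 and 11.25 nRPKM. Some genes often used to mark the induced state were at lower levels. Axl was at 2.181, Lpl at 1.53, Clec7a at 1.138, Itgax at 0.3553, Cst7 at 0.2405, Spp1 at 0.1331 and Gpnmb at 0.01352 nRPKM. They were picked after their values were seen, and none is among the 10 genes of the list that reached 10 nRPKM. Of 22 mouse orthologues of Alzheimer risk genes all had reads, 18 reached 1 nRPKM and 9 reached 10. Cd33 led, followed by Abi3 at 50.65, Trem2, Mef2c at 26.67 and Bin1 at 25.8. Clu at 0.4044 and Psen2 at 0.7385 nRPKM were lowest of those 22.

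Housekeeping families differed widely in level. Splicing factors and hnRNPs summed to 387.3 ± 30.2 nRPKM, with 40 of 40 read and Hnrnpa2b1 at 67.81 and Hnrnph1 at 44.92. Cytosolic ribosomal proteins summed to 141.9, 116.8, 121.4 and 120.9 nRPKM over 85 genes, and the splicing sum was 2.75 to 3.49 times higher in each library. Of the 85, 31 reached 1 nRPKM, a larger share than the 28.8% of nuclear protein-coding genes, and their median was 0.637 against 0.193 nRPKM. Rpl4 at 26.43 ± 2.39 was the 1 member at 10 or more. Subunits of oxidative phosphorylation encoded in the nucleus summed to 126.1 ± 7.93 and glycolysis enzymes to 18.49 ± 0.887, led by Hk2 at 6.054. Translation factors summed to 324.8 ± 50, led by Eif3a at 79.29.

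Levels per length were set beside the length of the gene models. Among detected members, ribosomal proteins had a median relative length of 0.218 and a median level of 0.684 nRPKM, against 0.941 and 4.85 nRPKM for splicing factors. Nuclear subunits of oxidative phosphorylation were as short, at 0.22, with a median of 1.36 nRPKM. Glycolysis enzymes and microglia markers had like lengths, 0.732 and 0.752, at medians of 0.655 and 39.5 nRPKM. With the detected protein-coding genes ordered by length and divided into 4 equal bins, 2.49% reached 10 nRPKM in the bin of shortest genes and 5.66% in the bin of longest. The median share of 50-base stretches in no other gene was 76% for ribosomal proteins, 98.2% for the nuclear subunits of oxidative phosphorylation and 99.4% for all protein-coding genes. The part of length and of uniqueness in the levels of ribosomal genes was not tested. Olfactory and vomeronasal receptors, known as receptors of sensory neurons, gave the opposite end of the scale: 1266 of 1452 had no read, and Olfr111 at 1.858 nRPKM was highest.

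In the order of the families by summed level, 63 pairs of neighbours could be compared, and in 8 pairs the 4 values of each did not overlap. Those 8 included the step from mitochondrial genes to long nuclear RNAs, from the latter to microglia markers, and from microglia markers to disease-associated genes. The ranges of cathepsins, lysosomal genes and zinc finger proteins (665 ± 51.4 nRPKM over 389 genes) overlapped. Within a library, the zinc finger sum was 1.02 to 1.18 times the lysosomal sum, and the cathepsin sum 0.897 to 1.13 times. A paired exact permutation test over 4 libraries cannot pass 0.05, so no p is given for any order.

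**Figure D4:**
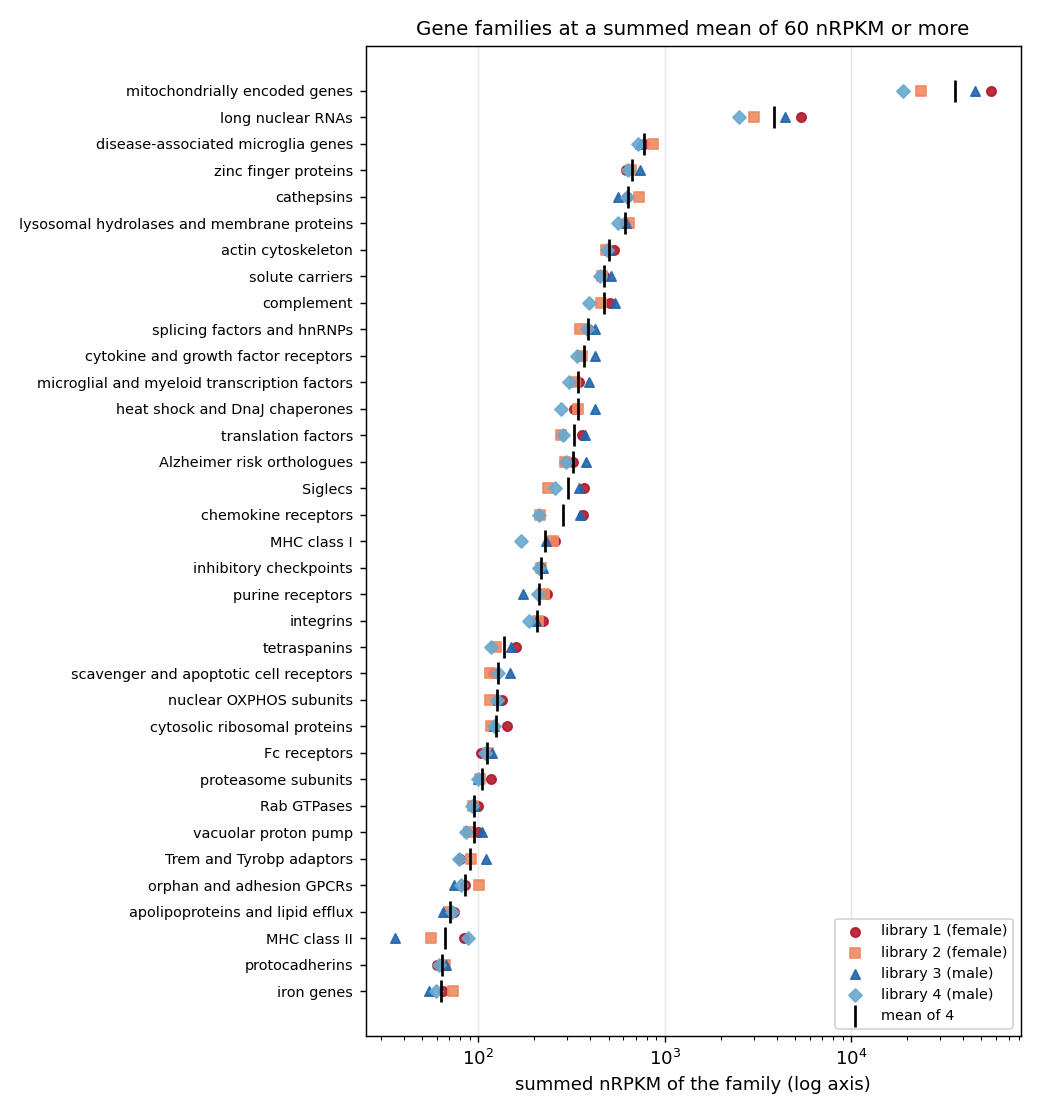
Summed nRPKM (log axis) of each gene family with a mean of at least 60 in the 4 wild-type libraries, with the mean as a vertical bar. Mitochondrial genes, at 18955 to 56103, and MHC class II genes, at 35.96 to 88.51, show wide spreads, and inhibitory checkpoints, at 211.5 to 221.6, a narrow one.

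Promoter sequence was read for the genes at these levels from a RefSeq table on GRCm38.p6, in windows of 250 bases before to 50 after the first listed start of each gene. Windows were found for 17000 protein-coding genes, 14 of the 20 microglia markers and 27 of the 30 leading genes. The PU.1 site searched was GAGGAAGT on either strand, 1 short form of what the factor binds. Of the microglia markers and leading genes with a window, Ctss and C1qc held it. Both sequences are GRCm38.p6, in the direction of the gene, with the site in capitals as its reverse complement: Ctss at chr3:95526536-95526791 (+ strand), where the site starts 2 bases before the first listed start, and C1qc at chr4:136892915-136893164 (- strand), where it starts 195 bases before. The C1qc stretch precedes its first listed start but reaches into its gene model, which runs to 136892936.
Ctss: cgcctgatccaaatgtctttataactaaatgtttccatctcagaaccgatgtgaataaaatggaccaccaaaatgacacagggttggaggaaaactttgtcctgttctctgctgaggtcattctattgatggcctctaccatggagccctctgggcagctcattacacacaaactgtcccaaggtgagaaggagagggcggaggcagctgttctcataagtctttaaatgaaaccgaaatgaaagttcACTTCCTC
C1qc: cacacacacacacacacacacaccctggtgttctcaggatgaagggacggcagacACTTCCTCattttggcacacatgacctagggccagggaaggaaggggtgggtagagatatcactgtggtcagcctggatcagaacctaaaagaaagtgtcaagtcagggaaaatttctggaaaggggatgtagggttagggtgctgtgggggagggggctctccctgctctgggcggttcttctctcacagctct

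The PU.1 site was in 3.21% of all windows (95% Wilson interval 2.95 to 3.48). By level it was in 3.97% of windows of genes with no read, 2.39% above 0 to 1 nRPKM, 3.44% from 1 to 10 and 6.28% from 10 to 100 (4.41 to 8.87, 29 of 462). With the 250 bases before the start alone, these 4 shares were 1.94, 1.95, 2.77 and 3.46%, and that of all windows 2.21%. It was in 1 of 20 windows of genes at 100 nRPKM or more and in 0 of 14 windows of microglia markers, which allows a share of up to 21.5%. Olfactory and vomeronasal receptors, nearly all without reads, held it in 6.76% of windows, and in 0.875% with the 250 bases before the start alone.

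The lysosomal CLEAR core, GTCACGTG, is bound by the Tfeb family of lysosomal regulators. It was in 7 of 33 windows of lysosomal genes (21.2%, Wilson interval 10.7 to 37.8) and in 2.95% of all windows. Among the lysosomal genes Lamp1, which encodes a lysosomal membrane glycoprotein at 17.86 ± 4.189 nRPKM, held it, as did Ctsd of the cathepsins, the only 1 of 18 cathepsin windows to do so. The other 6 lysosomal genes with the core were at lower levels: Mcoln1 at 3.392, Naglu at 2.316, Sgsh at 0.8267, Glb1 at 0.8222, Arsa at 0.5255 and Gla at 0.2256 nRPKM. The promoters of Ctsd and Lamp1 were chosen for display after their values were seen, with the core in capitals. Ctsd at chr7:142387828-142388077 (- strand) has the core starting 245 and 98 bases before its start, and Lamp1 at chr8:13158911-13159160 (+ strand) has it 28 bases before.
Ctsd: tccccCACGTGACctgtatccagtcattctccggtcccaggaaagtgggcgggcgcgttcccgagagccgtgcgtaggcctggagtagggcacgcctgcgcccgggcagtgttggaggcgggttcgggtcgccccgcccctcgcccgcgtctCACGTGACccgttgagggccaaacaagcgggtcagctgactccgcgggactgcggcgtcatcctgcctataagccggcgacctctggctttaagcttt
Lamp1: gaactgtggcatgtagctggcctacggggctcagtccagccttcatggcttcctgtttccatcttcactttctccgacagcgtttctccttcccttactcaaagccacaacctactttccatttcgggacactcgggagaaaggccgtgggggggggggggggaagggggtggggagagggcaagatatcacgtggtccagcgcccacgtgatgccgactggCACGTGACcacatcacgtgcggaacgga

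CpG content was lower in the median microglia marker than in the median splicing gene. In the 250 bases before the start, the median number of CpG was 10 over all windows, 4 for the 14 microglia markers and 22.5 for 36 splicing factors and hnRNPs. By level the median was 2 for genes with no read, 12 above 0 to 1 nRPKM, 17 from 1 to 10, 18 from 10 to 100 and 11.5 for the 20 genes at 100 or more. Most microglia markers had few CpG, though Tgfbr1 had 29, Slc2a5 15 and Sall1 13. P2ry12 with 3 CpG, Cx3cr1 with 4 and Luc7l3 with 26 are shown with each CpG in capitals, chosen after their values were seen. They lie at chr3:59262986-59263235, chr9:120068297-120068546 and chr11:94321964-94322213, all on the - strand. The Luc7l3 stretch precedes its first listed start but lies inside its gene model, which runs to 94322329. Luc7l3 is not a member of the list of splicing factors and hnRNPs. Of the other leading RNA processing genes with a window, Prpf38b had 19 CpG, Pnn 20, Srrm2 23 and Rbm25 0.
P2ry12: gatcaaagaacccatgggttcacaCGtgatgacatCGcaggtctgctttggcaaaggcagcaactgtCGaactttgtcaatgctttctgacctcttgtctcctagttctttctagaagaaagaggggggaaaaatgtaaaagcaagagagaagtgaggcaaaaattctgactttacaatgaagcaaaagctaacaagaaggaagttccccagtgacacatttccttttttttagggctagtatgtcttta
Cx3cr1: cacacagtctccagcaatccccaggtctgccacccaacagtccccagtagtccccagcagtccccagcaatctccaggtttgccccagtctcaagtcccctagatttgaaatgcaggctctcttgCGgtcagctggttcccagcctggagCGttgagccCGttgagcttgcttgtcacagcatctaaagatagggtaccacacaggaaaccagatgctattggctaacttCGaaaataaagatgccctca
Luc7l3: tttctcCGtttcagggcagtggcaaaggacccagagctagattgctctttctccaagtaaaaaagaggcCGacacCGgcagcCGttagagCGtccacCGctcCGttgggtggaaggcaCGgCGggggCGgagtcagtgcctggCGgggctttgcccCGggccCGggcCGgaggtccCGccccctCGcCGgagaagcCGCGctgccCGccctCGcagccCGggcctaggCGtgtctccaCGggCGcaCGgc

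Interferon response genes often held another motif. An IRF-type repeat, GAAANNGAA, was in 14 of their 23 windows (60.9%, Wilson interval 40.8 to 77.8) against 8.19% of all windows. The list summed to 44.94, 65.54, 35.69 and 43.56 nRPKM. Of its 32 genes 15 reached 1 nRPKM, a larger share than the 28.8% of nuclear protein-coding genes, and none reached 10. The list's median was 0.929 nRPKM. Trim30a at 7.929 led, ahead of the membrane protein Bst2 at 4.051 nRPKM. All motif matches are descriptions of letters in these windows, and binding was not measured.

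The spread between libraries was larger than counting error at every level. The coefficient of variation (SD over mean of nRPKM, n = 4) had a median of 61.6% for named nuclear genes at 1 to 10 CPM, where counting error alone gives 30.4%. It was 31.2% at 10 to 50 CPM, 21.9% at 50 to 100, 17.8% at 100 to 1000 and 18.5% at 1000 CPM or more, where counting error alone gives 1.51%. The 2621 protein-coding genes at 50 CPM or more had a median of 19.2%. The biological coefficient of variation fitted by edgeR over 8868 genes was 0.308.

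R3hdm1, which encodes an R3H-domain protein, was the steadiest gene. It was at 13.59, 13.55, 13.47 and 13.73 nRPKM, a coefficient of variation of 0.788%. Cep112 followed at 1.4%, the zinc finger gene Zmym4 at 2.44%, the spectrin Sptan1 at 2.63% and Wdfy2 at 2.67%. The kinases Map3k5 at 2.71% and Gsk3b at 2.82%, the Mediator subunit Med13 at 2.8%, Nktr at 2.93% and the mitochondrial elongation factor Gfm2 at 2.95% completed the 10. The value of R3hdm1 is below the 4.28% that counting error alone gives as the median at 100 to 1000 CPM, so the order of the steadiest genes cannot be read from 4 libraries.

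The most variable genes differed in which library set them apart. 2810004N23Rik was at 2.6, 5.328, 27.05 and 2.82 nRPKM and Dpp9 at 1.952, 1.687, 5.343 and 1.815, both high in library 3 alone. Khsrp, a splicing regulator, H13 and Zc3h13 were also highest in library 3, while Prox1 was highest in library 2. Sox4, a transcription factor, was at 62.93, 13.41, 43.33 and 16.92 nRPKM and Plppr3 at 10.98, 2.69, 9.622 and 2.611, both high in libraries 1 and 3. H2-Aa was high in libraries 1 and 4, and Ddx3y was at 0, 0, 7.053 and 5.893, following sex.

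Libraries 1 and 3 shared the 2 highest values in 678 of the 2621 genes (25.9%), and in 77 of those the lower of the pair was at least 1.5 times the higher of libraries 2 and 4. Libraries 2 and 3 shared them in 574 genes (22 with such a gap), libraries 2 and 4 in 506 (13), libraries 1 and 2 in 357 (8), libraries 1 and 4 in 255 (12) and libraries 3 and 4 in 251 (4). Genes of the 77 included Sox4, Rbm25, the translation factor Eif5b and C5ar2, a receptor for complement fragments at 25.21, 10.1, 34.12 and 12.4 nRPKM. Of the 28 mitochondrial genes at 10 nRPKM or more, 18 had the same arrangement. Between libraries, 10% of these genes differed by more than 2-fold from library 3 to library 4, and 2.21% from library 2 to library 4. The median deviation of a gene from its mean was 16.2% in library 3 and 10.7 to 12.8% in the others.

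**Figure D5:**
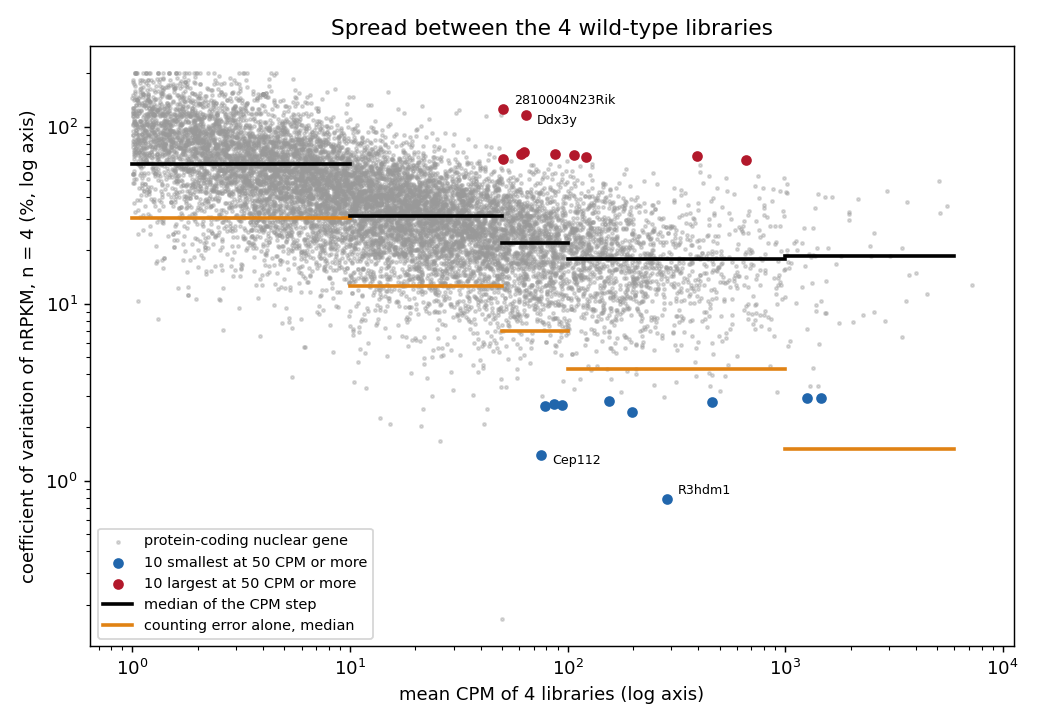
Coefficient of variation of nRPKM over 4 libraries (%, log axis) against mean CPM (log axis), each grey point being a nuclear protein-coding gene at 1 CPM or more. Black lines are the median of each CPM step over all named nuclear genes, noncoding ones included, and orange lines the median that counting error alone gives (61.6 and 30.4% at 1 to 10 CPM), with the 10 smallest in blue and the 10 largest in red among genes at 50 CPM or more.

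Sex was the only labelled difference within the group, and the test compared 2 males with 2 females. With edgeR's quasi-likelihood test and Benjamini-Hochberg adjustment, 7 of 11656 genes passed an adjusted p of 0.05, which is 0.0601% of genes tested. Of these, 3 were higher in females and 4 in males. On simulated data of this design, the test called 6.76% of genes changed by a log2 fold change of 1. It called 43.6% at 2 and 80.9% at 4, so most differences of the smallest size would be missed. Xist had 55631, 34890, 127 and 179 reads and was lower in males by a log2 fold change of -8.21 ± 0.474 (SE, edgeR adjusted p = 2.33e-06). Tsix, which is antisense to Xist, had 833, 634, 3 and 2 reads (log2 fold change -8.12 ± 0.503, edgeR adjusted p = 2.77e-06), and without a stated strand setting its reads cannot be told apart from Xist's.

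The 4 genes higher in males are on the Y chromosome. Ddx3y, an RNA helicase, had 0, 0, 351 and 417 reads and was at least 279-fold higher in males, against a floor of 3 reads over both female libraries (edgeR adjusted p = 2.17e-05). Eif2s3y, an initiation factor, had 0, 0, 107 and 272 reads and was at least 138-fold higher (edgeR adjusted p = 0.000522). The histone demethylases Kdm5d, with 0, 1, 261 and 324 reads, and Uty, with 2, 0, 113 and 255 reads, also passed (edgeR adjusted p = 3.73e-05 and 0.000823). These genes and Xist match the labelled sex of all 4 libraries.

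Oas3 was the only autosomal gene past the threshold. It encodes an interferon-induced sensor of double-stranded RNA and had 160, 58, 5 and 2 reads, a log2 fold change of -4.84 ± 0.769 in males against females (SE, edgeR adjusted p = 0.0435). Both females lay above both males. With limma-voom 1 gene, Xist, stayed past the threshold. The count of genes called rose to 52, 35 and 39 without library 1, 2 or 4.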

How the data were processed

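RNA of sorted Cd11b+ brain myeloid cells was sequenced in 4 wild-type libraries, grouped by the genotype and sex in their labels. The submitters' processing notes name the aligner GSNAP and the build GRCm38. Not given in the sources used here were versions, annotation, strand setting and read filters. Each deposited count is the number of reads with a unique alignment within a gene model, per the file headers. The deposited RPKM values (nRPKM) were adjusted by the authors with 1 size factor per library, per the file headers. Dividing RPKM by count was checked to leave 1 gene-specific constant and 1 factor per library (largest relative deviation 8.1e-15).

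CPM was computed over all counts in a file. Of 36528 gene numbers 31049 had a symbol in the RefSeq table of GRCm38.p6; genes without one held 2.22 to 3.05% of reads. Mitochondrial genes were taken by chromosome. The named genes were the 30 leading nuclear protein-coding genes (at least 100 reads over the 4 libraries), mitochondrial genes, the 5 leading noncoding genes, the 10 smallest and 10 largest coefficients of variation at 50 CPM or more, up to 4 leading members of each gene list, genes past the sex threshold with Xist and Y genes, and promoters with a PU.1 site; others named were chosen after their values were seen. The members and lists were chosen with earlier results of these data known. Uniqueness was computed from GENCODE M21 transcripts of the reference, and relative lengths from the ratio of counts to RPKM; both were added after seeing the data.

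The sex test was edgeR's quasi-likelihood test (edgeR 4.0.16, R 4.3.3) with TMM, the default count filter, robust dispersion and Benjamini-Hochberg adjustment at 0.05, tested on simulated data. Alternatives were DESeq2 1.42.0, limma-voom (limma 3.58.1), other scalings, no filter and leaving out each library. Dixon's ratio screened single libraries, and all else is a description without a test. Pairs of libraries differed by more than sampling noise (chi-square per degree of freedom 13 to 35.4), so none was counted as a repeat sequencing of another. This measure covers counting error only and cannot show whether the libraries came from separate mice. Results of some genes are not reported here.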

Additional observations from a re-analysis of the deposited data

Results flagged for a closer look

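Values of 320 genes and gene lists were screened for 1 library far from the 3 others by Dixon's gap-to-range ratio at the 95% level. The genes included those picked for the largest and smallest coefficients of variation in these same libraries. Of the 320 values 13 passed, a smaller share than the about 1 in 20 groups that chance flags. The odd library was library 3 in 6 cases, library 1 in 5, and libraries 2 and 4 in 1 each.

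Library 3 stood apart in P2ry12, the microglial ADP receptor, at 97.8 nRPKM against 127.9 to 130.4 in the others. It was also lowest for the transfer RNA TrnS2, at 30.24 against 63.11 to 67.17. It was highest for 2810004N23Rik at 27.05 against 2.6 to 5.328, and for the peptidase Dpp9 at 5.343 against 1.687 to 1.952. Both genes entered the screen through their large spread in these libraries, so their flags are no separate sign of an odd library. Library 3 was also highest for the synaptic protein Syn1 at 4.472 against 1.03 to 1.275, and for the tetraspanin Cd37 at 20.95 against 8.683 to 10.62.

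Library 1 was highest for the complex I gene ND3 at 22.97 nRPKM against 9.272 to 11.6, for the ribosomal protein Rps9 at 8.028 against 3.635 to 4.33, for the tetraspanin Cd9 at 25.78 against 12.63 to 14.1, and for the summed proteasome subunits at 117.8 against 99.5 to 101.8. It was lowest for the autophagy gene Gabarap at 5.793 against 7.71 to 8.021. Library 2 was lowest for the proteasome activator Psme1 at 5.081 against 7.69 to 7.842, and library 4 for the transfer RNA TrnI at 136.9 against 298.1 to 327.3.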

How the results depend on the processing

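The 7 genes called for sex kept their direction in every alternative run. The read share of the 100 leading genes, 41.1%, was 32.8% without mitochondrial reads and 38.4 to 43.5% with 1 library left out. The count of genes at 1 or more, 7346 by nRPKM, was 15016 by CPM. It was 5300 where every library had to reach the limit, and 7298 to 7366 with 1 library left out. The median coefficient of variation, 19.2%, was 23.5% on plain CPM and 16 to 19.3% with 1 library left out, the lowest being without library 3. The share of PU.1 sites at 10 to 100 nRPKM, 6.28%, was 3.46% in the 250 bases before the start alone. There the share of olfactory and vomeronasal receptors, 6.76%, above the 3.21% of all windows, was 0.875%, below the 2.21% of all windows. The 7 genes called for sex were 7 with DESeq2, 1 with limma-voom (220 at an unadjusted p under 0.05), 28 with no count filter, and 7 to 52 with 1 library left out, where the lone library of a sex is assumed to vary like the others. With limma-voom Tsix, Oas3, Ddx3y, Eif2s3y, Kdm5d and Uty missed the threshold. The 10 leading families by summed nRPKM were the same 10 with each library left out. By share of reads, 9 of the 10 leading families stayed without mitochondrial reads. That is the most possible, because the mitochondrial family was itself left out. No paired analysis was possible because the replicate numbers are in accession order and tie no library of 1 sex to the other. At 1 to 10 CPM counting error alone gives a coefficient of variation of 30.4%, which limits what the spread of low genes can show.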

Other observations

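A set of abundant genes had the library order 3, 2, 4, 1, which was not the order of mitochondrial reads. Lars2, the mitochondrial leucyl-tRNA synthetase, was at 114.9, 197.3, 282.1 and 123.7 nRPKM in libraries 1 to 4. The microRNA gene model Mir6236 was at 620.6, 1039, 1421 and 832.9 nRPKM, and the gene model Gm15564 at 58.55, 198.8, 309.5 and 130.5. A gene number without a symbol, 19791, was at 175.1, 318.7, 427.3 and 226.8 nRPKM. These were picked after their values were seen.

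The most abundant gene number without a symbol, 102641106, was at 308.3, 166.8, 573.5 and 122.9 nRPKM, a level that would place it among the leading nuclear genes. Its 2 highest values were in libraries 3 and 1.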
